A study of Mus musculus with 28 samples.

Results

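Cytosolic ribosomal protein genes encode the protein part of the ribosome, the machine that makes every other protein. They were chosen here by name: genes called Rpl or Rps followed by a digit, with Rplp0, Rplp1, Rplp2 and Rpsa, leaving out the Rps6k kinases and names that mark pseudogenes or retrotransposed copies. The rule took 86 of the 22919 genes listed in the authors' deposited tables. Of these, 31 encode standard proteins of the small (40S) subunit and 46 standard proteins of the large (60S) subunit, the acidic stalk proteins included. A further 7 are paralogs that can stand in for a standard protein (Rpl3l, Rpl10l, Rpl22l1, Rpl36al, Rpl39l, Rps4l and Rps27l), and 2 carry a similar name without being subunits of the standard set (Rpl7l1 and Rps19bp1). The name rule used no measured value.

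Ribosomal protein genes are short, are transcribed at high rates in nearly every cell, and are controlled together, so that the subunits are made in balanced amounts. Many host small nucleolar RNAs (snoRNAs) in their introns, and their messengers start with a tract of pyrimidines, the TOP motif, through which growth signalling sets their translation. In neurons they matter because the supply of ribosomes, in the cell body and in dendrites, limits how much protein a synapse can make after activity.

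The cultures were prepared from the forebrain (cortex and hippocampus, several CD1 embryos pooled) at embryonic day 18 and held neurons, astrocytes and oligodendrocyte precursor cells. All received a lentivirus on day in vitro 14, carrying either a control hairpin (shCtrl) or a hairpin against Rai1 (shRai1), a chromatin-binding regulator, so that every group was infected and grown alike. On day 17 they had 4 hours of water as vehicle, of 1 µM tetrodotoxin (TTX), which blocks sodium channels and silences the network, or of 20 µM bicuculline (BIC), which blocks inhibition and drives it. Bromouridine was given for the last 20 minutes, and the RNA that had taken it up was isolated with an antibody and sequenced (Bru-seq), so the values report newly made RNA, introns included, and not the stock of messenger. There were 16 libraries, 3 in each of the 6 groups except shCtrl vehicle (2, replicates 1 and 2) and shCtrl BIC (2, replicates 2 and 3).

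The values come as summaries over libraries: 7 tables of DESeq2 comparisons (a log2 change with its standard error, SE, and a Wald test adjusted by the Benjamini-Hochberg method) and 1 pooled FPKM per condition (fragments per kilobase of gene, scaled to library size) with the bounds the authors give. No value per library was available here, so depth per library and overlap between libraries are unknown. The replicates are separate cultures by the labels. Rai1 itself was not called lower in the shRai1 libraries in vehicle (log2 change 0.16 ± 0.07 SE, adjusted p = 0.357), TTX (-0.12 ± 0.06 SE, adjusted p = 1.00) or BIC (0.03 ± 0.07 SE, adjusted p = 1.00). A hairpin acts on finished messenger, so nascent RNA does not check the knockdown. In shCtrl vehicle the neuron marker Map2 stood at 31.8 FPKM, the astrocyte marker Gfap at 81.7 and the precursor marker Pdgfra at 5.65. Markers of microglia, which the labels do not name, summed to 21.6 FPKM over 6 genes, from Tmem119 at 0.0763 (0 to 0.387) to Cx3cr1 at 14.7 (10.9 to 18.4).

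The promoters of a few members are shown first, because they are described one by one further on: Rpl22l1, Rps3, Rps15a and Rpl24 are the members called higher under BIC in both arms, Rpl22 is the standard gene that Rpl22l1 resembles, and Rpl10 and Rpl12 are among the members that fell most under TTX. Each line gives 40 bases before and 20 bases from the annotated start on, from RefSeq promoters of GRCm38.p6, 5′ to 3′ on the strand of the gene, and capitals mark the words searched on both strands: TATAAA of the TATA box, GGAAG of ETS sites, ATGGCGG of YY1 sites, GGGCGG of GC boxes, CACGTG of E-boxes and the cAMP response element TGACGTCA, or the reverse complement of each. Rpl22 has 2 annotated starts.
Rpl22l1: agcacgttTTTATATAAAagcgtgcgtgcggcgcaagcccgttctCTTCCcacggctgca
Rps3: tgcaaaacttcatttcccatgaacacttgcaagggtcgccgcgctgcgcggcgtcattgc
Rps15a: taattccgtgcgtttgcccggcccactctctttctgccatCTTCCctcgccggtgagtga
Rpl24: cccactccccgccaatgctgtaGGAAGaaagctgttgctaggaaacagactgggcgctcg
Rpl22, upstream start: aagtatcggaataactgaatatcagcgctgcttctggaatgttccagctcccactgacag
Rpl22, downstream start: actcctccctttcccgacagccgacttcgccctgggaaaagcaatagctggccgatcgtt
Rpl10: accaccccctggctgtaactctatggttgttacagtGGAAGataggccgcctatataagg
Rpl12: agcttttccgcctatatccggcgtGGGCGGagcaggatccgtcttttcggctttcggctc
The windows lie at chr3:28805468-28805527 (Rpl22l1, plus strand), chr7:99483690-99483749 (Rps3, minus strand), chr7:118116128-118116187 (Rps15a, minus strand), chr16:55966235-55966294 (Rpl24, plus strand), chr4:152324396-152324455 (Rpl22, upstream start, plus strand), chr4:152325686-152325745 (Rpl22, downstream start, plus strand), chrX:74270776-74270835 (Rpl10, plus strand) and chr2:32961672-32961731 (Rpl12, plus strand). In Rpl22l1 the capitals near the left end are a TATA box sequence, read on both strands. In Rps15a they begin at the start itself, a C followed by pyrimidines as in a TOP messenger.

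Of the 86 members, 65 matched RefSeq promoters by symbol, with 77 starts, and each promoter was searched over 250 bases before and 50 bases after the start. GGAAG, the core word of ETS-family sites, was present at 93.5% of the member starts and at 71.4% of all 32851 starts. GGGCGG, the core of GC boxes, was present at 61% against 35.7%. ATGGCGG, part of the site known for YY1, was present at 18.2% against 4.05%, and TGACGTCA, the full cAMP response element, at 6.49% against 1.79%. CACGTG, the E-box, was present at 10.4% against 7.15%, and TATAAA at 9.09% against 13.6%. A start on C with 4 pyrimidines after it was annotated at 16.9% of the member starts, in 13 members, against 2.51% of all starts. These are matches of letters, given as a description. The TTX change described below had a median of -0.21 in shCtrl over the 12 measured members with such a start and of -0.29 over the 47 others with a promoter, and in shRai1 the order was the reverse, with -0.23 and -0.19.

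The newly made RNA of these genes was abundant in vehicle-treated cultures. In shCtrl vehicle the 78 members whose mean normalized count was 50 or more ranged from 19.9 to 546 FPKM with a median of 89.7, while the median of all 12311 genes past the same count was 10.3 FPKM. FPKM corrects for gene length, and the members that share their interval with no other listed gene had a median length of 3138 bp against 30672 bp for all genes. The 40S genes had a median of 92.7 FPKM and the 60S genes one of 91.8. Most of these proteins are present once per ribosome, yet among the standard genes past the count the highest level was 22.7 times the lowest.

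Rpl41, which encodes a very small basic peptide of the 60S subunit, was the highest member at 546 FPKM (bounds 422 to 670). It was followed by Rps27, a zinc-finger protein of the 40S subunit, at 334 (245 to 424) and Rplp1, an acidic protein of the stalk that recruits translation factors, also at 334 (255 to 413). Rps2, at the entry channel for messenger, stood at 261 (200 to 321) and Rps28 at 242 (173 to 312). The bounds of Rpl41 overlapped those of Rps27 and lay above those of Rplp1, Rps2 and Rps28.

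At the other end stood paralogs with restricted expression. Rpl10l, a testis paralog of Rpl10, was listed at 0 in all 3 shCtrl conditions. Rpl39l was at 0.474 FPKM (0 to 1.35) and Rpl3l, the striated-muscle paralog of Rpl3, at 0.597 (0 to 1.85), so that neither differed from 0 by its bounds, while Rpl39 was at 150 and Rpl3 at 116. Rps4l followed at 7.46 (0 to 15.9) against 71.8 for Rps4x, and the lowest member past the count filter was Rps19bp1, a nucleolar partner of Rps19, at 19.9 (12.3 to 27.5). Other paralogs were well transcribed. Rpl22l1 (38.7, 23.2 to 54.1) stood above Rpl22 (24.0, 17.8 to 30.2) with overlapping bounds, Rpl36al (35.2, 21.3 to 49.1) stood below Rpl36a (82.4, 56.9 to 108) without overlap, and Rps27l was at 38.4 (22.7 to 54.1). Rpl7l1, which by its name resembles Rpl7, was at 49.9 (38.5 to 61.3) with Rpl7 at 55.7 (40.6 to 70.8).

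Not every member could be counted. Rpl26 and Rps27 have a mean count of 0 in the comparison tables and no test, although the FPKM table lists them at 22.5 and 334. Rpl30 (mean count 0.51, 45.0 FPKM), Rpl34 (0.883, 130 FPKM) and Rps4l (3.36, 7.46 FPKM) were nearly uncounted too. All 5 share their interval with another listed gene, such as Rps27rt or Rpl34-ps1. Their values across conditions are therefore not read here. In all, 33 members share an interval with another listed gene, 21 of them with a snoRNA, and 84 members had a test.

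**Figure D1:**
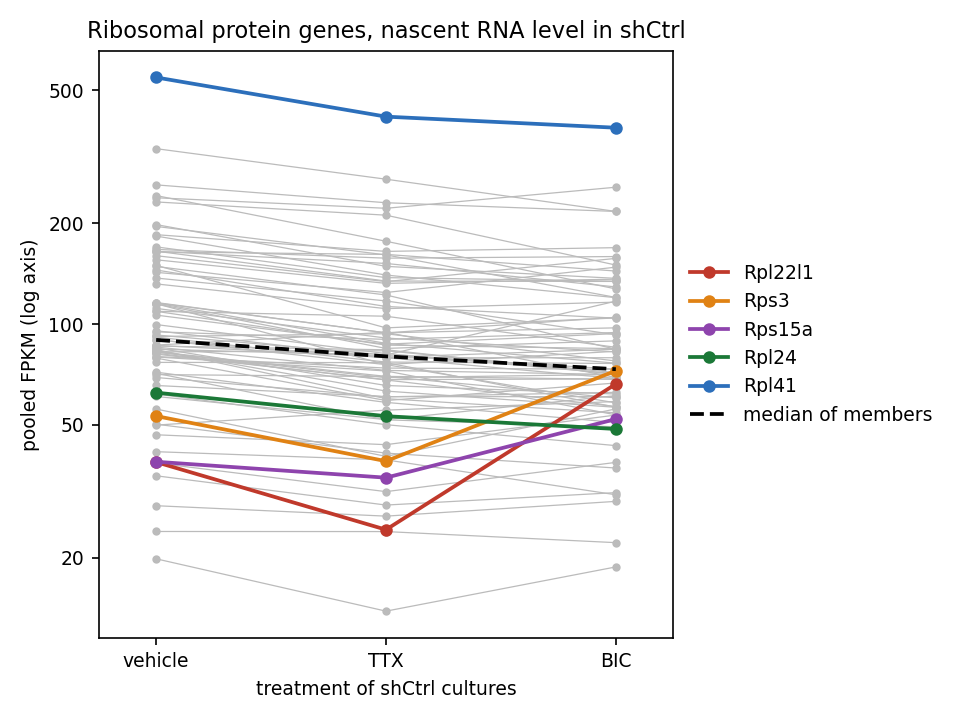
Pooled FPKM (log axis) of the 78 members with a mean count of at least 50 in shCtrl cultures under vehicle, TTX and BIC, 1 line per gene and a dashed line for their median. The median passes from 89.7 to 80.1 under TTX and 73.3 under BIC, while Rpl22l1, Rps3 and Rps15a dip under TTX and rise under BIC.

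Silencing the network lowered transcription of part of the ribosomal protein genes. After TTX in shCtrl, the authors' deposited table called 37 of the 84 tested members lower and 0 higher (adjusted p under 0.05), where 10.9% of the 21192 tested genes were lower and 8.59% higher. At an unadjusted p under 0.05 the counts were 50 lower and 0 higher, against 14.1% and 12.2% of all tested genes. Among genes with a mean count of at least 50, 18.2% were lower. The median member changed by -0.28, a fold of 0.823, and 77 of the 78 members past the count lay below 0, while the median of all tested genes was 0.00. The shift was shallow and broad: the 5th and 95th percentiles of the members were -0.56 and -0.06. In bulk cultures, fewer cells of a type and less RNA per cell cannot be told apart.

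Both subunits took part. Of the 40S genes, 12 of 30 tested were lower with a median of -0.27, and of the 60S genes 24 of 45 with a median of -0.29. The remaining call was the paralog Rpl22l1. Members that share their interval with a listed snoRNA were lower in 15 of 21 cases (median -0.32), and those past the count without one in 22 of 57 (median -0.27). Restricting the set to the 53 tested members alone in their interval left 18 lower and 0 higher, with a median of -0.27. Genes of at most 10 kb with a mean count of at least 50, which resemble the members in length, had a median of 0.00. Of these 2330 genes, 386 were lower and 223 higher.

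Rpl22l1 (chr3:28704433-28706337, mm9), the paralog of Rpl22 that can enter the 60S subunit in its place, fell most. Its FPKM in shCtrl was 38.7 in vehicle and 24.3 (12.5 to 36.1) under TTX, and its deposited log2 change was -0.97 ± 0.14 SE (adjusted p = 2.5e-10). Transcription of this gene was thus about 0.51 of the vehicle level. Rpl22 itself (chr4:151698545-151708191) was at 24.0 FPKM in both conditions, with a change of -0.15 ± 0.11 SE (adjusted p = 0.35).

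Rpl10 (chrX:71516155-71518474), which completes the 60S subunit at the last step of its maturation, went from 111 to 90.8 FPKM and changed by -0.66 ± 0.11 SE (adjusted p = 1.49e-07). Rpl12 (chr2:32817232-32819565), at the base of the stalk, went from 115 to 84.6 FPKM and changed by -0.62 ± 0.12 SE (adjusted p = 2.96e-06). Rpl39 (chrX:34622515-34625179), a short protein of the exit tunnel, went from 150 to 97.4 FPKM and changed by -0.59 ± 0.13 SE (adjusted p = 5.15e-05). These 3 genes share their interval with a snoRNA each (Snora70, Snora65 and Snora69). The FPKM bounds of vehicle and TTX overlapped for each of them, and the calls rest on the deposited tests. Rpl41, the highest member, went from 546 to 417 FPKM and changed by -0.56 ± 0.11 SE (adjusted p = 1.11e-05). The pooled FPKM, computed separately from the same shCtrl libraries, moved the same way for most members. Of 78 members 74 had a lower FPKM under TTX, with a median log2 ratio of -0.25, and 36 of the 37 lower calls did. This is not independent of the deposited changes. It is also not particular to TTX, since 66 of 78 had a lower FPKM under BIC (median -0.27).

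The response was measured again in shRai1, with libraries that shCtrl does not share. There 24 of 84 members were lower and 0 higher, against 12.3% lower and 10% higher among all tested genes, and 20.7% lower among genes with a mean count of at least 50. At an unadjusted p under 0.05 the counts were 35 lower and 0 higher, against 15% and 13.6% of all tested genes. The median was -0.19 (fold 0.875) and 69 of the 78 members past the count lay below 0. Of the members alone in their interval, 13 of 53 were lower. The 40S genes had 9 of 30 lower with a median of -0.20 and the 60S genes 14 of 45 with a median of -0.19.

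Across the arms, 19 members were lower in both, which is 19 of the 37 called in shCtrl and of the 24 called in shRai1. Of all tested genes 7.94% were lower in both arms, which is 73% of those called lower in shCtrl and 64.7% of those in shRai1. The 19 members comprise Rpl22l1, 13 standard 60S genes and 5 standard 40S genes. Rpl22l1 again fell most (-0.56 ± 0.13 SE, adjusted p = 1.07e-04). Rpl21 (chr5:147644466-147648608), a 60S protein, fell in shRai1 (-0.50 ± 0.09 SE, adjusted p = 9.55e-08) and in shCtrl (-0.46 ± 0.10 SE, adjusted p = 2.37e-05), with shCtrl FPKM of 92.8 in vehicle and 80.8 under TTX. Rplp2, the partner of Rplp1 in the stalk, changed by -0.37 ± 0.10 SE in shRai1 (adjusted p = 0.00102) and -0.42 ± 0.11 SE in shCtrl (adjusted p = 9.77e-04). Over the 78 members the changes in the arms had a Pearson r of 0.468 and a Spearman rho of 0.359, as a description over genes that share their libraries.

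The other 18 calls in shCtrl were not called in shRai1, and 5 members, Rps6 and Rps15a among them, were called in shRai1 alone, against 2.94% and 4.33% of all tested genes. A call in 1 arm alone does not show that the arms differ. The difference of the TTX responses, computed here from the deposited changes with a two-sided Wald test over 18241 genes, was called for 0 of 83 members, while 0.943% of all genes were called. At an unadjusted p under 0.05 it was positive for 8 members (9.64%) and negative for 0, against 4.71% positive and 4.34% negative among all genes. Oligodendrocyte-lineage markers had a positive difference called for 5 of 8 (median 0.93). Of 8 astrocyte markers 0 were called, but 7 lay above 0 (median 0.13). The part of both marker lists in this result was not tested. The ribosomal protein genes' median was 0.11 toward a weaker fall in shRai1. For a typical single member the 95% interval reached 0.30 to either side, before adjustment over genes. Larger values also went uncalled, up to 0.53 for Rps27l, so differences above 0.30 in 1 gene can be missed too. Rpl15, a 60S protein, came closest to the threshold, at 0.42 ± 0.13 SE (adjusted p = 0.094), with -0.39 ± 0.10 SE in shCtrl and 0.03 ± 0.09 SE in shRai1.

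**Figure D2:**
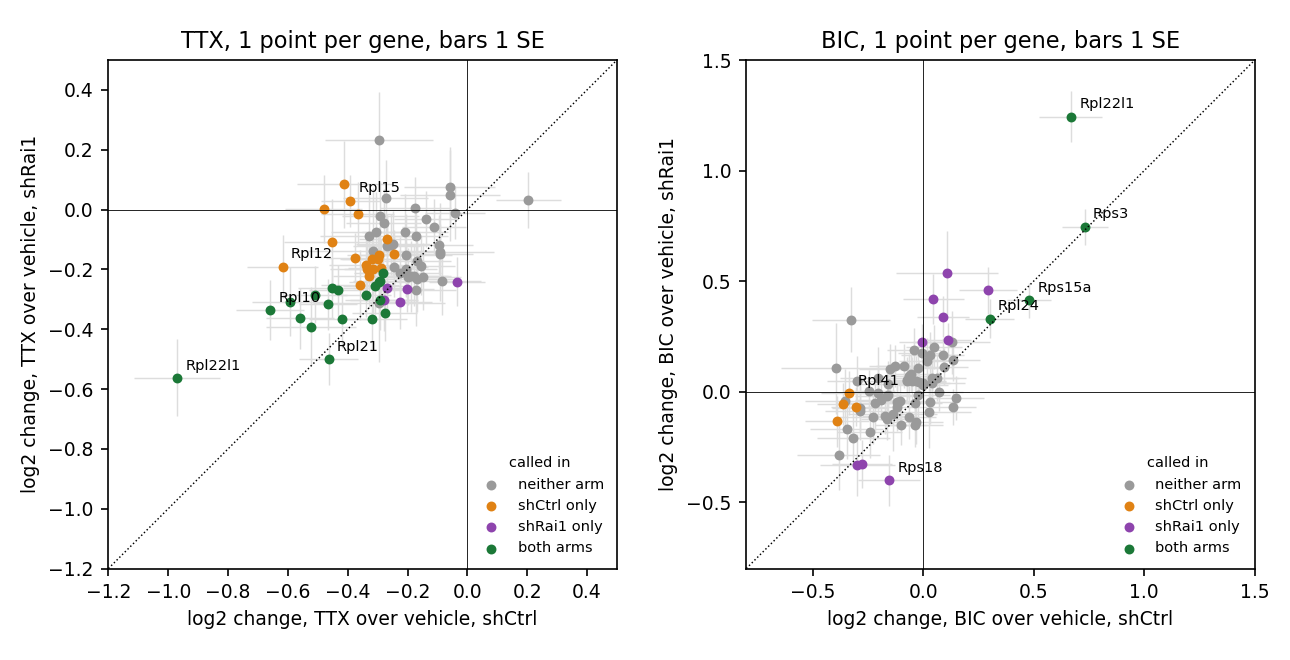
Deposited log2 change under TTX (left) and BIC (right) in shCtrl (x axis) against shRai1 (y axis), 1 point per member with a mean count of at least 50, bars of 1 SE and a dotted line of equality. Under TTX most points lie below 0 on both axes, and under BIC 4 members lie above 0 and are called in both arms.

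Genes of related function were read from lists of names. Translation factors and other genes whose messengers carry a TOP motif were lower under TTX for 7 of 15 in shCtrl and 7 of 15 in shRai1, with 0 higher in either arm. Among them Nap1l1, a histone chaperone, changed by -0.62 and -0.60 and Tpt1, an abundant growth-linked protein, by -0.77 and -0.36, and Eef1a1, the factor that delivers aminoacyl-tRNA, changed by -0.39 in shCtrl (called) and -0.06 in shRai1 (not called). Ribosome assembly factors were lower for 11 of 29 in shCtrl and 16 of 29 in shRai1, with 0 and 1 higher. Nolc1, a nucleolar chaperone of snoRNA particles, changed by -1.06 in each arm, Ddx21, a nucleolar helicase, by -0.79 and -0.95, and Fbl, the methyltransferase of snoRNA particles, by -0.71 and -0.91, all called. Noncoding snoRNA hosts were lower for 4 of 10 and 2 of 10. For comparison, 10.9% of all tested genes were lower and 8.59% higher in shCtrl, and 12.3% and 10% in shRai1. The difference between these lists and all tested genes was not tested. Of the ribosomal proteins that the name rule misses, Gnb2l1 (RACK1) was lower in both arms (-0.46 and -0.27) and Fau in shCtrl (-0.35, against -0.21 not called in shRai1).

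Mitochondrial ribosomal protein genes encode the separate ribosome of mitochondria. Under TTX, 4 of 77 were lower and 5 higher in shCtrl (median 0.03), and 4 lower and 4 higher in shRai1 (median 0.00). Among all tested genes 10.9% were lower and 8.59% higher in shCtrl, and 12.3% and 10% in shRai1. The difference between the families was not tested.

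Cell type markers moved with the treatment as well. In shCtrl under TTX, 4 of 8 oligodendrocyte-lineage markers and 4 of 8 astrocyte markers were lower and 1 and 0 higher, and the summed FPKM of these lists went from 191 to 164 and from 239 to 197. In shRai1, 4 of 8 oligodendrocyte-lineage markers were higher and 0 lower, opposite to the ribosomal protein genes, and 1 of 8 astrocyte markers was lower and 1 higher. Of 10 neuron markers, 4 were lower and 2 higher in shCtrl (summed FPKM 766 and 714) and 4 lower and 1 higher in shRai1. The shares over all tested genes were 10.9% lower and 8.59% higher in shCtrl, and 12.3% and 10% in shRai1. No marker of these 3 lists was listed at 0. Their part in the fall of the ribosomal protein genes was not tested.

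**Figure D3:**
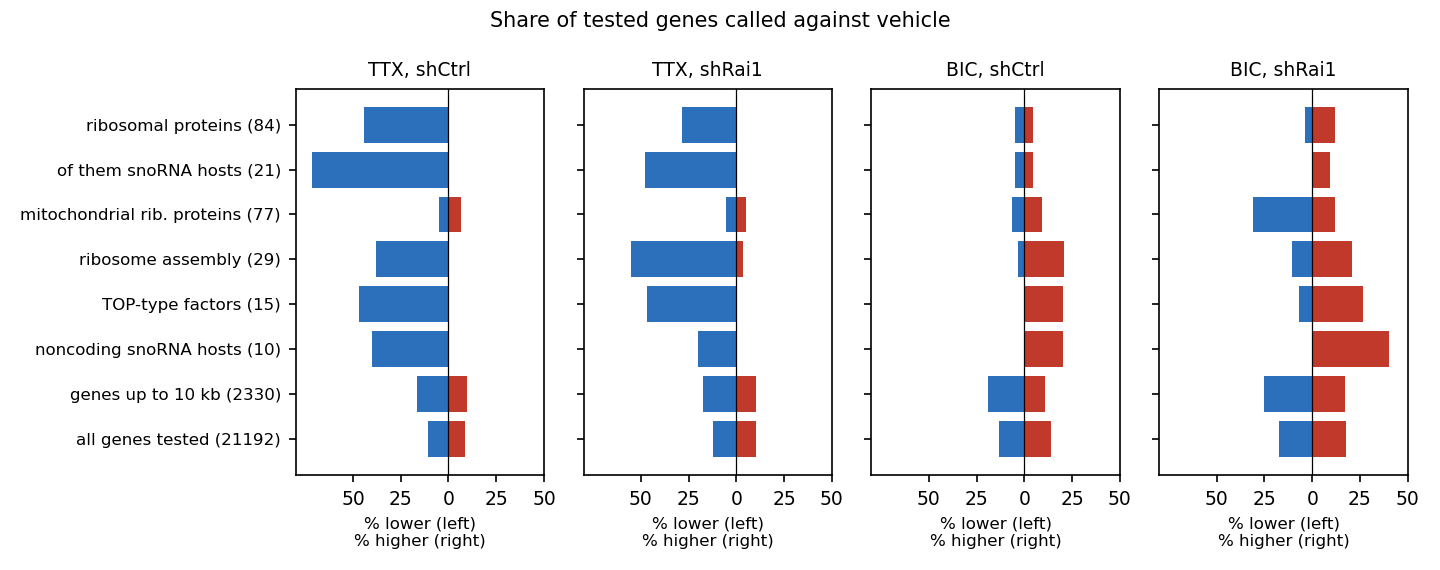
Percent of the tested genes in each list (number in brackets) called lower (left, blue) and higher (right, red) against vehicle, for TTX and BIC in each arm. Ribosomal protein genes have 37 lower and 0 higher calls of 84 under TTX in shCtrl and 24 and 0 in shRai1, and calls of both signs under BIC.

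Driving the network moved single members, with calls in both directions in each arm. After BIC in shCtrl, 4 of 84 members were higher and 4 lower, where 13.7% of all tested genes were higher and 13.4% lower, and in shRai1 10 were higher and 3 lower, where 17.6% of all genes were higher and 17.6% lower. Without adjustment (p under 0.05), 5 members were higher and 11 lower in shCtrl, against 16.4% and 16.6% of all genes, and 15 higher and 3 lower in shRai1, against 19.7% and 19.9%. The medians were -0.07 and 0.01. The pooled FPKM does not match this for shCtrl: 66 of 78 members had a lower FPKM under BIC than in vehicle, with a median log2 ratio of -0.27 against -0.06 for all genes, although the deposited changes of the same members had a median of -0.06. The cause of this mismatch was not tested, and the deposited changes, which carry a test, are used for the calls.

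A few members rose in both arms. These were Rpl22l1, Rps3, Rps15a and Rpl24, which is 4 of the 4 members called higher in shCtrl and 4 of the 10 in shRai1. Of all tested genes 12.8% were called higher in both arms, which is 93% of those in shCtrl and 72.7% of those in shRai1. Rpl22l1 stood at 66.2 FPKM (44.2 to 88.2) under BIC, against 38.7 in vehicle and 24.3 under TTX. Its change was 0.67 ± 0.14 SE in shCtrl (adjusted p = 2e-05) and 1.24 ± 0.12 SE in shRai1 (adjusted p = 2.12e-25), or folds of 1.59 and 2.37. The bounds of TTX and BIC did not overlap. Its counterpart Rpl22 changed by -0.04 ± 0.13 SE (adjusted p = 0.864) and -0.15 ± 0.10 SE (adjusted p = 0.227).

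Rps3 (chr7:106626407-106632219), at the messenger entry of the 40S subunit and also known in DNA repair, stood at 53.1, 38.9 and 72.5 FPKM in vehicle, TTX and BIC. It rose by 0.73 ± 0.10 SE in shCtrl (adjusted p = 3.46e-11) and 0.75 ± 0.08 SE in shRai1 (adjusted p = 1.43e-18). It shares its interval with Snord15a and Snord15b. Rps15a (chr7:125247890-125259661), a 40S protein alone in its interval, stood at 38.8, 34.7 and 52.0 FPKM and rose by 0.48 ± 0.10 SE (adjusted p = 1e-05) and 0.41 ± 0.08 SE (adjusted p = 5.75e-07). Rpl24 (chr16:55966388-55971550), a 60S protein that bridges the subunits, was called higher by 0.30 ± 0.11 SE (adjusted p = 0.025) and 0.33 ± 0.09 SE (adjusted p = 7.81e-04). Its pooled FPKM went the other way, from 62.4 to 48.6 with overlapping bounds, whereas the FPKM of the other 3 was higher under BIC.

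All 4 were also lower under TTX in at least 1 arm. Rps3 fell by 0.46 and 0.32 on the log2 scale in shCtrl and shRai1, Rpl24 by 0.29 and 0.24, and Rps15a by 0.27 in shRai1, while its -0.20 in shCtrl was not called. With Rpl9, a 60S protein that was lower under TTX in both arms and higher under BIC in shRai1 (0.22 ± 0.08 SE, adjusted p = 0.0177), these were the 5 members called in opposite directions by the drugs within an arm, and 6.94% of all tested genes were lower under TTX and higher under BIC in at least 1 arm. Within an arm the drugs share their vehicle libraries.

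The other members called higher in shRai1 were Rpl36al, Rpl7, Rps12, Rplp0, Rpl5 and Rpl9. Rpl36al, the autosomal copy of the X-linked Rpl36a, changed by 0.54 ± 0.19 SE (adjusted p = 0.0134), while Rpl36a changed by -0.29 ± 0.16 SE (adjusted p = 0.139). Rpl7, a 60S protein, changed by 0.46 ± 0.11 SE (adjusted p = 7.14e-05). The paralogs have near-identical coding sequence in part, and reads of 50 bp in exons can be split between copies by counting.

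No member was called lower under BIC in both arms, against 11.8% of all tested genes, which does not show that the arms differ. In shCtrl the lower calls were Rplp1 (-0.39 ± 0.14 SE, adjusted p = 0.0239), Rpsa, a laminin-binding 40S protein (-0.36 ± 0.12 SE, adjusted p = 0.00946), Rpl41 (-0.33 ± 0.13 SE, adjusted p = 0.0265) and Rpl15 (-0.31 ± 0.11 SE, adjusted p = 0.0184). Their FPKM went from 334 to 217, from 109 to 84.4, from 546 to 386 and from 81.3 to 68.5. Rpsa, Rpl41 and Rpl15 were lower under both drugs in shCtrl, where both comparisons use the same vehicle libraries. The share of all tested genes with both calls is not given here, so this overlap is not read as a trait of the members. In shRai1 the lower calls were Rps18 (-0.40 ± 0.11 SE, adjusted p = 0.00147), at the head of the 40S subunit, Rpl37a (-0.33 ± 0.11 SE, adjusted p = 0.00703) and Rps21 (-0.33 ± 0.14 SE, adjusted p = 0.0435). Rpl37a and Rps21 had similar values in shCtrl, -0.28 ± 0.13 SE and -0.30 ± 0.17 SE, without a call. When all changes were centred on the median of genes with a mean count of at least 50, 3 of the 4 lower calls in shCtrl (Rplp1, Rpl41 and Rpl15) no longer passed the threshold, which left 5 higher and 1 lower, and in shRai1 the split became 14 higher and 2 lower. The shares of all tested genes after centring are not given here.

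Over the 78 members the BIC changes of the arms had a Pearson r of 0.744 and a Spearman rho of 0.608, again as a description over genes. The difference of the BIC responses was called for 0 of 83 members, and for 0.0219% of all genes. At an unadjusted p under 0.05 it was positive for 6 members (7.23%) and negative for 0, against 2.09% and 0.937% of all genes, and its median was 0.11. The same vehicle libraries of both arms enter the difference of the TTX responses (median 0.11) and the knockdown in vehicle (median -0.12). These medians are therefore not independent, and the shifts are not separate results. Rps20 had the largest value, 0.65 ± 0.23 SE (adjusted p = 1.00), and Rpl22l1 the next, 0.58 ± 0.18 SE (adjusted p = 1.00). In this difference 6 of 8 oligodendrocyte-lineage markers lay above 0 (median 0.13), as did 6 of 8 astrocyte markers (median 0.13). Of either list 0 were called, and their part in this result was not tested.

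Among the related lists under BIC, TOP-type factors had 3 higher and 0 lower of 15 in shCtrl and 4 and 1 in shRai1, and assembly factors 6 and 1 of 29 and 6 and 3. Of all tested genes 13.7% were higher and 13.4% lower in shCtrl, and 17.6% each way in shRai1. Rrp12, an export factor of pre-ribosomes, changed by 0.64 and 0.51, and Nip7, a 60S assembly factor, by 0.60 and 0.64, all called. Gnb2l1 was higher in both arms (0.30 and 0.35). Mitochondrial ribosomal protein genes had 7 higher and 5 lower of 77 in shCtrl and 9 and 24 in shRai1, with medians of -0.07 and -0.18.

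**Figure D4:**
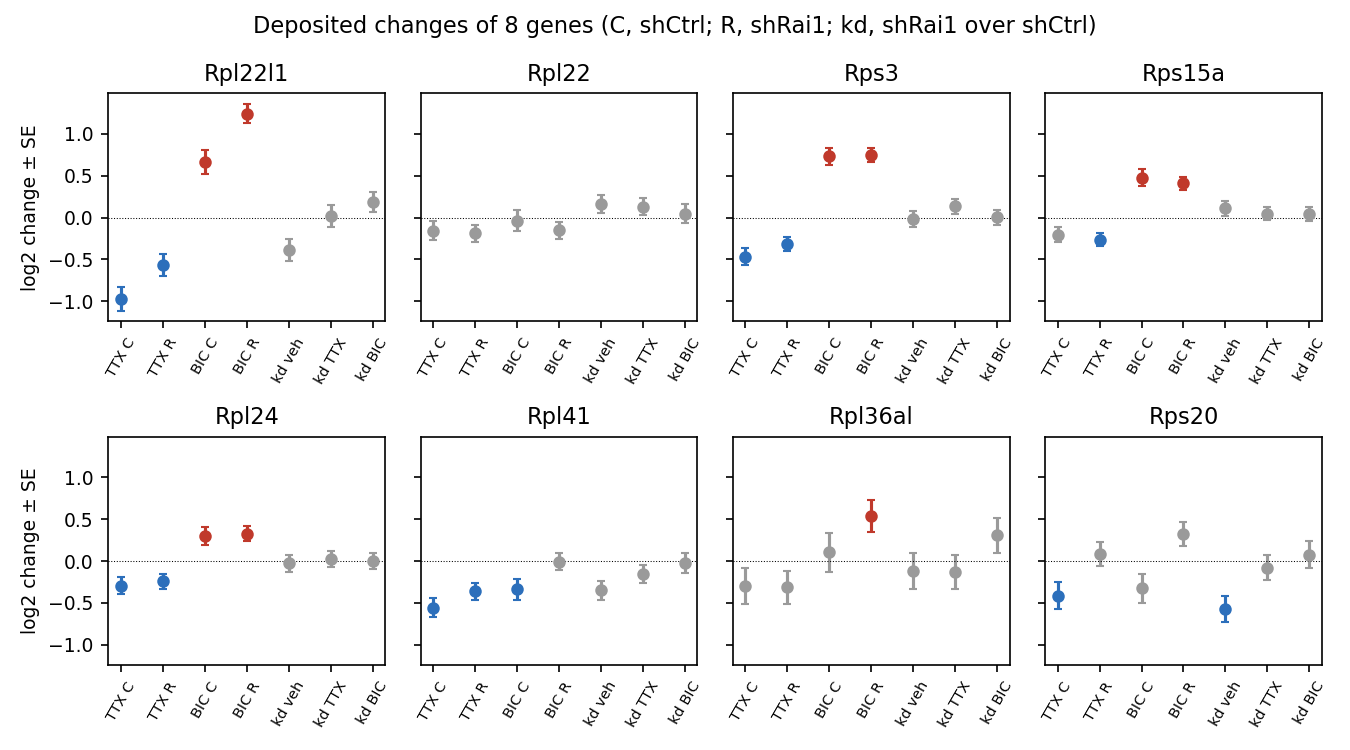
Deposited log2 change ± 1 SE of 8 members in the 7 comparisons (C, shCtrl; R, shRai1; kd, shRai1 over shCtrl), with calls in blue (lower) and red (higher). Rpl22l1 spans -0.97 to 1.24 across drugs and arms while Rpl22 is not called in any comparison, and Rps20 has the only call for the knockdown.

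Few of these genes differed between the hairpins. In vehicle, 1 of the 83 members in the table was lower and 0 higher, against 0.491% lower and 0.0849% higher among all tested genes. At an unadjusted p under 0.05 the counts were 12 lower and 0 higher, against 4.56% and 3.19% of all tested genes. The median was -0.12 (fold 0.922), and 66 of the 78 members past the count lay below 0. The shCtrl vehicle libraries that enter here are the same 2 that serve as baseline for both drugs in shCtrl, where the medians were -0.28 and -0.07, so these 3 medians are not independent. Oligodendrocyte-lineage markers were lower here too, 4 of 8 (median -0.67). Of 8 astrocyte markers 0 were called, but 7 lay below 0 with a median of -0.21, and 4 were lower at an unadjusted p under 0.05. Their part in this result was not tested.

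The 1 call was Rps20 (chr4:3761620-3762747), a 40S protein of the subunit head, with a change of -0.57 ± 0.16 SE (adjusted p = 0.0447). It stood at 116 FPKM in shCtrl vehicle. The call ended when p-values were adjusted over every gene with a p-value (adjusted p = 0.0632) or over genes averaging 0.5 FPKM or more (adjusted p = 0.0504). In TTX its change was -0.08 ± 0.15 SE and in BIC 0.08 ± 0.16 SE, neither called.

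Under TTX and under BIC the knockdown gave 0 calls among 84 members, where 0.0283% and 0.00944% of all tested genes were called in either direction. By the same DESeq2 test, 1 member was higher and 0 lower at an unadjusted p under 0.05 in TTX, against 1.36% and 1.94% of all tested genes. In BIC 1 was higher and 1 lower, against 1.59% and 1.34%. The medians were -0.02 and -0.01, and for a typical single member the 95% interval reached 0.20 and 0.22 to either side. Averaged over the 3 treatments, 0 of 83 members were called by the Wald test computed here and 0.00548% of all genes, and the median was -0.04, with a reach of 0.12 for a typical single member. At an unadjusted p under 0.05, 7 members were lower and 0 higher in that average, against 2.45% and 1.67% of all genes. All 8 oligodendrocyte-lineage markers lay below 0 in it (median -0.21, 1 called), as did all 8 astrocyte markers (median -0.09, 0 called), and their part in this result was not tested. Rpl41 had the smallest p in that average, with -0.18 ± 0.06 SE (adjusted p = 1.00).

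**Figure D5:**
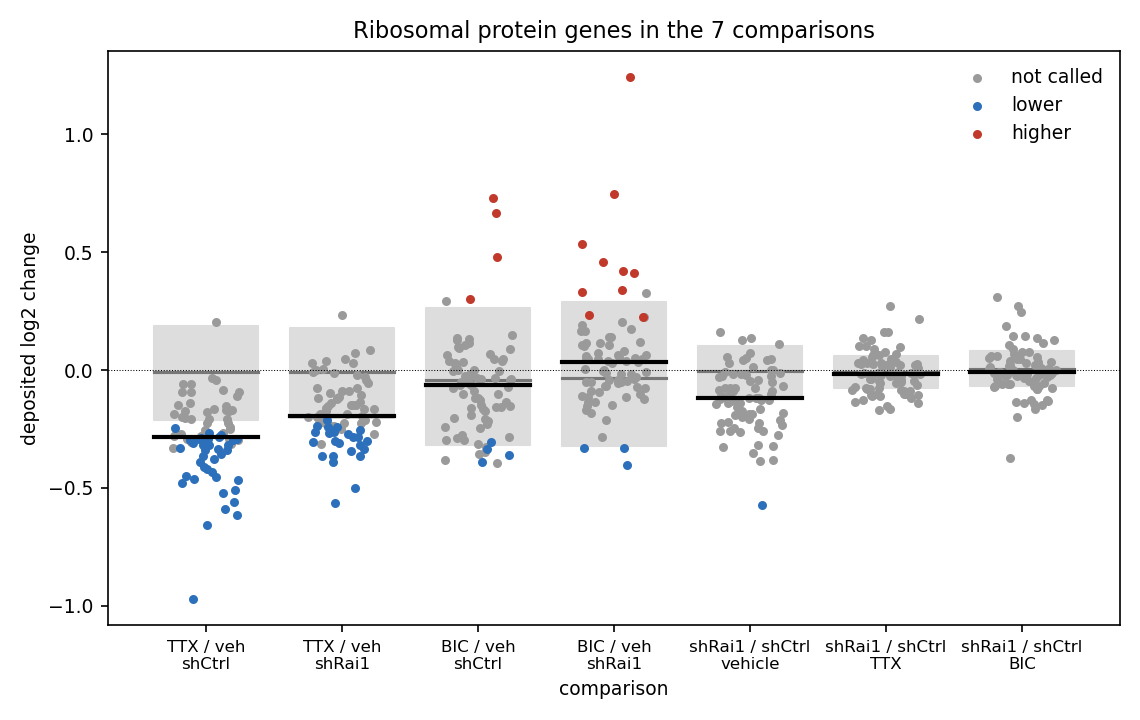
Deposited log2 change of the 78 members with a mean count of at least 50 in each comparison, 1 point per gene, with calls in blue (lower) and red (higher), the members' median as a black line, and the median and quartiles of all genes past the same count in grey. The members' median is -0.29 and -0.19 under TTX, -0.06 and 0.03 under BIC, and -0.12, -0.02 and -0.01 for the knockdown in vehicle, TTX and BIC.

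Over all 7 comparisons, 37 of the 84 tested members were not called in any, against 52.8% of all tested genes. These include abundant genes such as Rps2, which changed by -0.17 ± 0.11 SE under TTX in shCtrl (adjusted p = 0.244), as well as the 6 tested members with a mean count under 50. The level of a member in shCtrl vehicle had a Spearman rho of -0.20 with its TTX change in shCtrl and 0.02 in shRai1, and of -0.42 and -0.14 with its BIC change, over 78 genes that share libraries. For the 50 members alone in their interval and past the count, interval length had a rho of 0.27 and -0.09 with the TTX change and of 0.44 and 0.01 with the BIC change.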

How the data were processed

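Per the labels' protocols the libraries are stranded, single-end and 50 bp long. The submitters' processing notes name TopHat2 2.1.0, Bowtie2 2.2.6, DESeq2 without a version and the build mm9. The FPKM table names no build, and its intervals, printed 1-based, are given as mm9 on those notes. Per the file headers, the authors deposited for each comparison a mean normalized count (a signal averaged over libraries), a log2 change, its standard error, a Wald score, p-values before and after adjustment, and 1 pooled FPKM with bounds per condition. The deposited log2 changes among the TTX and vehicle groups close to within 1e-09, as changes from 1 fit do. The BIC comparisons did not enter that check, so 1 fit of all 6 groups is assumed. The p-values follow from the Wald scores to within 8.91e-10. Changes of low genes look shrunken toward 0, so folds of low genes may be understated. The authors left some genes without an adjusted p-value, and 78 of 84 tested members had one for TTX.

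Gene names are absent from the table of the knockdown in vehicle, so its rows were matched to names through mean counts that occur once (20107 named, 1085 not, Rpl10l among the latter), and in a second table with names hidden 20107 of 20107 were recovered. The knockdown columns of the FPKM table did not follow the order of the knockdown comparisons, so they served only in the mean over conditions that filters use, and no FPKM of shRai1 is printed.

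Computed here: counts of members called at an adjusted p under 0.05, shares over all 21192 tested genes, medians, and 3 combined contrasts (2 interactions and the knockdown averaged over treatments). These combine deposited changes that share no library, with the root of the summed squared errors, two-sided Wald tests and Benjamini-Hochberg adjustment over the 18241 named genes averaging 0.1 FPKM or more. On simulated data with 200 genes changed by a log2 of 1, the TTX interaction recovered 90.5%, the BIC interaction 81.5% and the average 100.0%. False calls were 10, 10 and 5. The noise was drawn with the deposited standard errors that the test also uses, so this checks the computation and not those errors. A log2 of 1 exceeds every member's value in these contrasts (at most 0.65), so the recovery does not carry over to the members. The mean count of at least 50 used for descriptions is a choice made here. Named genes were the 4 largest rises and falls per comparison among called members averaging 0.5 FPKM or more, the 5 highest and 5 lowest members by FPKM, paralog pairs, Fau, Gnb2l1 and Rai1, except a few genes that are not reported here; Map2, Gfap, Pdgfra, Tmem119, Cx3cr1, other list genes, and the other members described were named as examples after their values were seen. The members and lists were chosen with earlier results of these data known. Lists were TOP-type factors (15), assembly factors (30, 29 measured), noncoding snoRNA hosts (11, 10 measured), and markers of neurons (10), astrocytes (8), the oligodendrocyte lineage (8), microglia (6) and endothelium (5). Python 3.11.15 with pandas 2.3.3, numpy 2.4.6, scipy 1.17.1 and matplotlib 3.10.9 was used. ChIP-seq, with 12 samples, was not used here.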

Additional observations from a re-analysis of the deposited data

How the results depend on the processing

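The counts of called members kept within 1.5 times of the reported ones in 70 of 80 comparisons with alternatives, which were other thresholds, adjustments, a centring and subsets of members. At a threshold of 0.01 they became 18 for TTX in shCtrl, 12 for TTX in shRai1, 4 for BIC in shCtrl and 0 for the knockdown in vehicle, and at 0.1 they became 14 for BIC in shCtrl and 1 for the TTX interaction (Rpl15). The shares of all tested genes at these thresholds are not given here, so these counts cannot be set against the background. With members alone in their interval they were 18 and 13 for TTX in shCtrl and shRai1, of 53 tested members in place of 84. The single knockdown call in vehicle became 0 with adjustment over every gene with a p-value and 0 over genes averaging 0.5 FPKM or more. None reversed. Centring moved all genes by at most 0.04 on the log2 scale. A restriction to the standard proteins and the median FPKM ratio were added after the data were seen. Over the 78 members past the count, the ratio moved the BIC median in shCtrl from -0.06 to -0.27, and the cause was not tested. Of 606 results for named genes under an alternative, 8 no longer passed and 2 newly passed.

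No paired analysis was possible because the files hold no values per library. For the same reason, leaving out replicates and the replicate block were not run, and no library was compared with its group. The shCtrl vehicle and shCtrl BIC groups have 2 libraries each, and the vehicle pair enters 3 of the 7 comparisons. P-values measure the spread between these cultures only.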

Other observations

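Microglia and endothelial markers, the cell types that the labels do not name, were detected in part. The summed FPKM of 6 microglia markers in shCtrl was 21.6 in vehicle, 22.7 under TTX and 31.3 under BIC, and 2 of the 6 were called higher under BIC in shCtrl and 1 in shRai1, where 13.7% and 17.6% of all tested genes were, with Cx3cr1, the fractalkine receptor, in both arms (0.92 and 0.60). The 5 endothelial markers summed to 1.35, 1.68 and 2.09 FPKM, and 1 of them was listed at 0 in at least 1 condition.

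Noncoding snoRNA hosts, whose spliced products are degraded quickly, were called higher under BIC for 2 of 10 in shCtrl and 4 of 10 in shRai1, with 0 lower, where 13.7% and 17.6% of all tested genes were higher. In shCtrl 5 of the 10 lay below 0. Snhg8 changed by 1.00 and 1.13 in shCtrl and shRai1 and Snhg6 by 0.58 and 0.54, all called, and both were lower under TTX in shCtrl (-0.64 and -0.45).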
